A study of Mus musculus with 4 samples.

Results

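The adult globin genes and Alas2 were followed in RNA of the lumbar spinal cord. The members were Hba-a1 and Hba-a2 (alpha globin), Hbb-b1 and Hbb-b2 (beta globin) and Alas2, chosen by their names in the deposited table and not by their values. They made up 5 of 18674 gene names and 8 of 23750 rows, since Hba-a1, Hba-a2 and Alas2 each had 2 rows. Wild type (WT) mice and mice with the G93A transgene, a mutant form of human SOD1 that causes motor neuron disease, received vehicle or spermidine (SD), a natural polyamine. This gave 4 groups with 1 library each, called WT vehicle and WT + SD, and likewise G93A vehicle and G93A + SD. By the labels treatment lasted 30 days, with injections 4 times per week. The study's methods give a dose of 5 mg/kg, male mice, an age of 100 days for the sequenced mice, PBS as the vehicle of this experiment, and the G93A H1 high-expresser strain bred with B6/SJLF1 females. The number of animals in each library was not given in the sources used here, and no step to wash blood from the sequenced tissue is described. Values are RPKM, which divides the reads of a transcript by its length in kilobases and by the reads sequenced in that library, a unit read from the values because the table does not name it. With 1 library per group there was no test between groups, and no p-value is given.

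Hemoglobin carries oxygen in the red cell and is built from 2 alpha and 2 beta globin chains, each of which holds a heme. Alas2 encodes the red cell form of 5-aminolevulinate synthase, the first and rate-limiting enzyme of heme synthesis, while Alas1 encodes the form used by other cells. Red cells lose their nucleus but young ones keep globin mRNA, so that globin reads in a tissue extract are often taken as a measure of the blood left in it. Some neurons and glia are also known to transcribe globin genes. In these libraries RNA from blood and RNA from cord cells cannot be told apart, nor can more red cells and more RNA per cell.

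In GRCm38.p6 as annotated by RefSeq, Hba-a1 lies on chromosome 11 from 32283672 to 32284486 and Hba-a2 on the same plus strand from 32296492 to 32297310, with 3 exons each. Their coding sequences of 429 bases differ at 1 position. The substitution is C381T, counted from the first base of the start codon, with the base of Hba-a1 first and that of Hba-a2 last. The stretch of 53 bases around it, as long as 1 sequencing read, is printed from GENCODE M21 transcripts to show how little separates the genes, with the differing base in capitals.
Hba-a1: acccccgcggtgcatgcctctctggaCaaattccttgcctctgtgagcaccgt
Hba-a2: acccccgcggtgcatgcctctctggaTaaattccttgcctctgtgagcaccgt
Of the 502 windows of 53 bases in the GENCODE transcript of Hba-a2, 433 (86.3%) also occur in that of Hba-a1. The sources used here do not say how such reads were assigned, and the split of reads between these genes is uncertain. The row named Hbb-b1 is the RefSeq transcript that GRCm38.p6 calls Hbb-bt, on chromosome 7 from 103812524 to 103813923 on the minus strand. Mouse strains differ in their adult beta globin genes, which are called Hbb-bs and Hbb-bt on C57BL/6J chromosomes and Hbb-b1 and Hbb-b2 in other strains. The table has no row named Hbb-bs, with which Hbb-bt shares 378 of its 651 windows (58.1%). Alas2 lies on chromosome X (plus strand, 11 exons) from 150547417 to 150570622. None of its 1985 windows was found in transcripts of other genes, so its level is not open to this doubt.

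The promoters are shown because the members moved together across the libraries. Each is the 250 bases before the RefSeq transcript start on GRCm38.p6, 5′ to 3′ on the strand of the gene. Capitals mark matches to 4 motifs. These were the GATA motif (AGATAA, with T also allowed as its first letter and G as its last, both strands), CACCC (both strands), CCAAT (both strands) and TATAA (strand of the gene). The first is bound by GATA1 and the second by KLF1, both regulators of red cell genes. No base fell in matches of different motifs.
Hba-a1, chr11:32283422-32283671, plus strand: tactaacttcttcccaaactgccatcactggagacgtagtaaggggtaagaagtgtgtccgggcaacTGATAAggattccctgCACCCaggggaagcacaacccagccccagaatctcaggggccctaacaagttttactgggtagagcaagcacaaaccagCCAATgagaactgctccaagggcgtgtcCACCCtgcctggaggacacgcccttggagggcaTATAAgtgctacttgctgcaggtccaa
Hbb-bt, chr7:103813924-103814173, minus strand: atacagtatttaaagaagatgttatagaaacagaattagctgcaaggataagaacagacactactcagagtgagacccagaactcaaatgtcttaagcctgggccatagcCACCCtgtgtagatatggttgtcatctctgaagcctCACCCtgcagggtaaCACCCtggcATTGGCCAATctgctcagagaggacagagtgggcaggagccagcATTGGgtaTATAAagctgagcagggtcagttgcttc
Alas2, chrX:150547167-150547416, plus strand: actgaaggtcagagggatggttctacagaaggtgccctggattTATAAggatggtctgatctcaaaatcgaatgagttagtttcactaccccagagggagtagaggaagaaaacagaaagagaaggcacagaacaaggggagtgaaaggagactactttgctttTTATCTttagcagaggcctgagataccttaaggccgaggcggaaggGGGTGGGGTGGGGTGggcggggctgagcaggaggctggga
Hba-a2 is not printed, since its window and that of Hba-a1 share a stretch of 247 bases. The Hba-a1 window held 1 GATA, 2 CACCC, 1 CCAAT and 1 TATAA match. The Hbb-bt window held 3 CACCC, 3 CCAAT and 1 TATAA match and none of the GATA words. The Alas2 window held 1 GATA match, 3 CACCC matches that abut each other, and a TATAA match at -207 to -203 from the start. Of 32851 promoter windows of this length, 26.5% held a GATA word, 52.0% CACCC, 33.8% CCAAT and 16.0% TATAA. A match is a description of the letters and not a binding site.

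**Figure D1:**
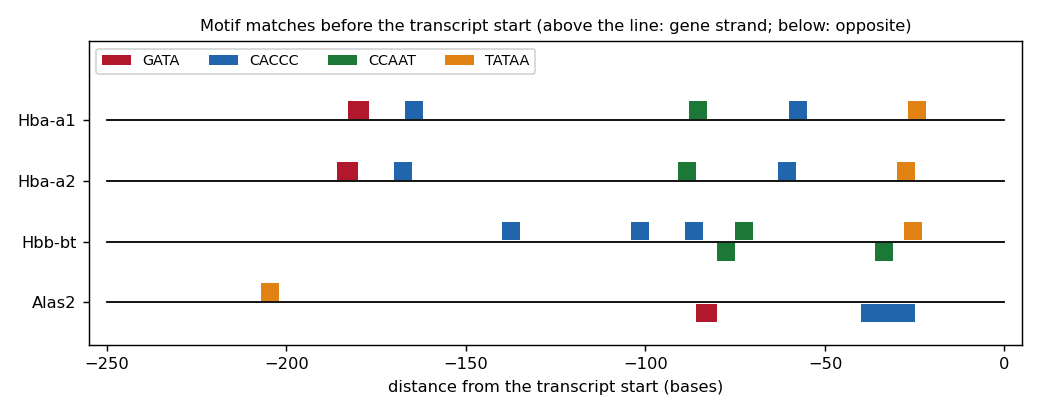
Matches to the 4 motifs in the 250 bases before the transcript start of Hba-a1, Hba-a2, Hbb-bt and Alas2. The horizontal axis is the distance from the start in bases, and boxes above and below each line are on the gene strand and the opposite strand. The alpha windows are alike apart from a shift of 3 bases, and the CACCC matches of Alas2 lie on the opposite strand.

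The rows of the members gave 4 separate readings rather than 8. The first row of Hba-a1 had 16.9 RPKM (vehicle) and 34.5 (SD) in WT, and 24.7 (vehicle) and 28.4 (SD) in G93A. The first row of Hba-a2 had 16.8, 34.3, 24.5 and 28.2 RPKM in the same order. Their ratio lay between 1.00686 and 1.00703 in the 4 libraries, and that of the second rows between 1.00697 and 1.00716. The RefSeq transcripts have 559 and 563 bases (gene span less introns), a length ratio of 1.00716. Values that differ only by such a factor are what 1 set of reads divided by 2 lengths would give. Hba-a1 and Hba-a2 are therefore described as 1 reading per pair of rows. Likewise Hbb-b2 was between 1.02538 and 1.02593 times Hbb-b1 in every library. The rows of Alas2, which are isoforms of 1 gene, differed in ratio by 1.44% between libraries. Over the 2082 names with exactly 2 rows above 0 in all libraries, the median of this spread was 1.02%.

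In the second pair of alpha rows, Hba-a1 had 3.61 RPKM (vehicle) and 7.20 (SD) in WT, and 6.23 (vehicle) and 5.68 (SD) in G93A. The first rows were 4.67, 4.79, 3.97 and 4.99 times the second in the same libraries. The table gives no positions, so which gene copy each pair of rows describes is not known. The pairs differed in the order of the G93A libraries, with G93A + SD above G93A vehicle in the first pair and below it in the second. Hbb-b1 had 6.28 RPKM (vehicle) and 12.6 (SD) in WT, and 9.61 (vehicle) and 9.76 (SD) in G93A. Hbb-b2 had 6.44, 12.9, 9.85 and 10.02 RPKM in the same order. Averaged over rows, Alas2 had 1.25 RPKM (vehicle) and 2.19 (SD) in WT, and 1.45 (vehicle) and 2.01 (SD) in G93A. WT vehicle was the lowest and WT + SD the highest library in all 8 rows.

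**Figure D2:**
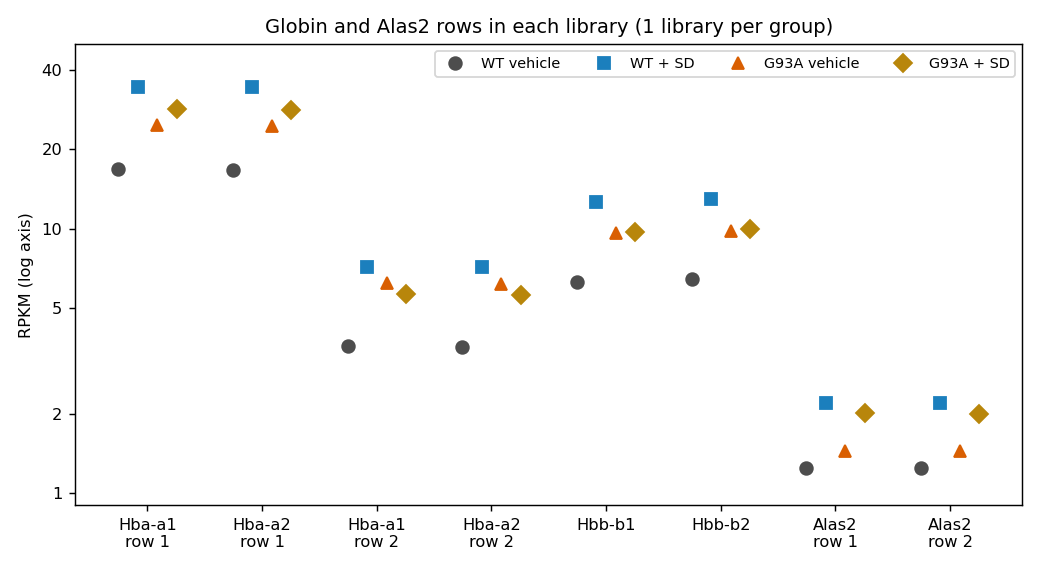
RPKM of each row of Hba-a1, Hba-a2, Hbb-b1, Hbb-b2 and Alas2 in the 4 libraries, on a log axis. Each point is 1 library, and there are no replicates. In every row WT vehicle is lowest and WT + SD highest, as for Hbb-b1 with 6.28 and 12.6 RPKM.

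The depth behind these readings was estimated, since the table holds no counts. Low values on transcripts over 500 bases clustered at a step that was read as 1 counted fragment, which gave 36800000 to 38600000 fragments per library. On that scale the first alpha rows rested on about 347 fragments (vehicle) and 738 (SD) in WT, and 525 (vehicle) and 612 (SD) in G93A. The second alpha rows rested on about 74.4, 154, 132 and 123 fragments. The beta rows rested on about 146, 304, 230 and 238 fragments, and Alas2 on about 87.1, 158, 104 and 147 fragments. The intervals given with the folds are 95% intervals for counting error from these estimates. They hold no error between animals or dissections, which is unknown.

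The comparison of WT + SD with WT vehicle asks what SD changes in healthy cord. All members were at least 1.5-fold higher in WT + SD, 5 of 5, where 7.40% of 18112 gene names were and 8.82% were lower by as much. Among names with a mean of at least 1 RPKM over the libraries, as all members have, the shares were 0.909% and 1.36% of 12986 names. The first alpha rows were 2.04-fold higher (counting interval 1.80 to 2.32) and the second 1.99-fold (1.51 to 2.63). The beta rows were 2.01-fold higher (1.65 to 2.45), and the first row of Alas2 1.75-fold (1.35 to 2.27). With a pseudocount of 1 RPKM, which weighs on low values, Alas2 was at 1.42-fold and below the threshold. Ranked by fold among 12987 names with a mean of at least 1 RPKM, Hba-a1 stood at 35, Hbb-b1 at 39 and Alas2 at 61. The rise of alpha and beta globin was thus of nearly the same size, while that of Alas2 was smaller with an interval that overlaps theirs. Because the alpha names share reads, as the beta names may, the 5 names are not 5 independent observations.

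The comparison of G93A vehicle with WT vehicle asks what the transgene changes. It uses the same WT vehicle library, so that its folds are not independent of those above. The 4 globin names were at least 1.5-fold higher in G93A vehicle and Alas2 was not, against 20.7% of all 18237 names and 13.5% of those averaging 1 RPKM or more. None of the members was 1.5-fold lower, against 10.5% of all names and 4.68% of those averaging 1 RPKM or more. The folds were close to the threshold, at 1.51 for Hba-a1 and 1.53 for Hbb-b1, and scaling the libraries by median ratios put them at 1.45 and 1.47, below it. The first alpha rows were 1.46-fold higher (counting interval 1.28 to 1.68) and the second 1.72-fold (1.30 to 2.29). The beta rows were 1.53-fold higher (1.24 to 1.88). The first row of Alas2 had a fold of 1.15, with an interval from 0.868 to 1.53 that includes no difference.

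Under SD the genotype comparison had the opposite sign. G93A + SD stood below WT + SD in all 8 rows, and none of the 5 names reached 1.5-fold in either direction. Of all 18266 names, 12.8% were at least 1.5-fold lower and 23.8% higher, and of those averaging 1 RPKM or more 8.12% and 16.3%. The fold was 0.822 for the first alpha rows (counting interval 0.739 to 0.915), 0.789 for the second (0.622 to 0.9996) and 0.774 for the beta rows (0.653 to 0.917). For the first row of Alas2 it was 0.922 (0.736 to 1.15). Over the 12987 names averaging 1 RPKM or more, 1064 (8.19%) were higher in G93A under vehicle and lower under SD, as all 5 members were. Of the 1751 names averaging 1 RPKM or more whose G93A vehicle level was at least 1.5-fold that of WT vehicle, 26 (1.48%) were lower in G93A + SD than in WT + SD, and 4 of the 26 were the globins. A name that far above under vehicle has further to go to change sign, and the globins passed that threshold narrowly. The difference between these genotype folds could not be tested with 1 library per group.

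**Figure D3:**
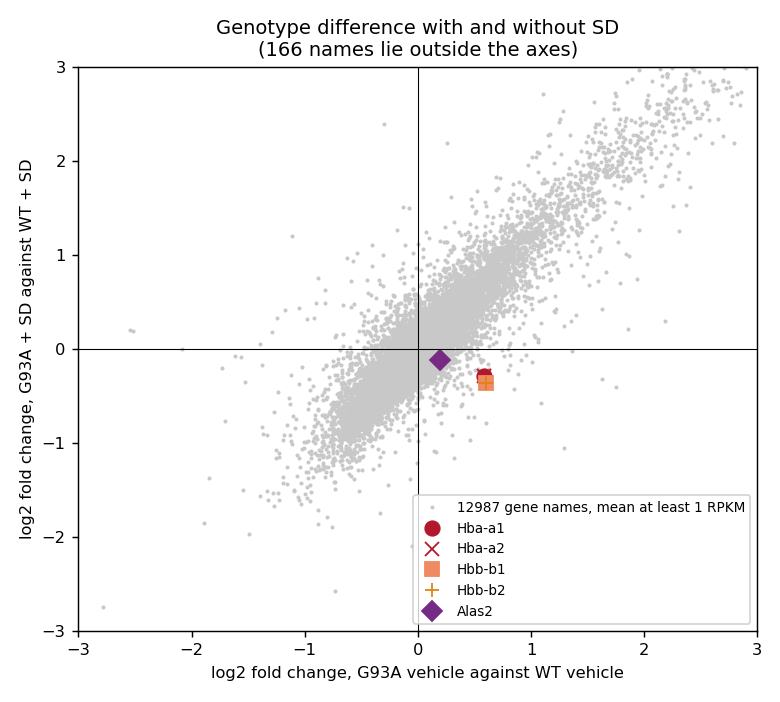
Log2 fold change (pseudocount of 0.1 RPKM) of G93A vehicle against WT vehicle on the horizontal axis and of G93A + SD against WT + SD on the vertical axis, for 12987 gene names with a mean of at least 1 RPKM. Hba-a1 lies at 0.59 and -0.29 and Hbb-b1 at 0.61 and -0.37, each above 0 on the first axis and below 0 on the second. Of all names, 166 lie outside the axes.

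Between the G93A libraries, the comparison that asks what SD changes in diseased cord, 0 of the 5 names differed at least 1.5-fold. Of all 18300 names, 8.89% were higher and 7.46% lower in G93A + SD, and of those averaging 1 RPKM or more 1.34% and 1.04%. The first alpha rows were 1.15-fold higher in G93A + SD (counting interval 1.02 to 1.29), and the second had a fold of 0.912 (0.713 to 1.17). The beta rows had a fold of 1.02 (0.848 to 1.22). The first row of Alas2 was 1.40-fold higher (1.09 to 1.80), which is more than the beta rows but below the threshold. For the globins, the difference that accompanied SD in WT was therefore not repeated at that size in G93A. The interval of Alas2 in G93A overlaps its interval in WT (1.35 to 2.27). The difference between the SD folds was not tested.

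Averaged over rows, the 5 names had 1 order of the libraries, from WT vehicle over G93A vehicle and G93A + SD to WT + SD. This order was found for 181 of 12987 names (1.39%). The second alpha rows alone had G93A + SD below G93A vehicle. For the beta rows these libraries differed by 1.02-fold, with a counting interval (0.848 to 1.22) that includes no difference. Since the alpha names share reads, as the beta names may, the names do not give 5 independent orders. The ratio of alpha globin, averaged over its 4 rows, to beta globin was 1.61 (vehicle) and 1.63 (SD) in WT, and 1.58 (vehicle) and 1.71 (SD) in G93A. With the first alpha rows alone it was 2.64, 2.69, 2.53 and 2.86. The summed globins (4 names) were 26.5 times Alas2 (vehicle) and 30.6 (SD) in WT, and 34.8 (vehicle) and 26.8 (SD) in G93A. The highest of these ratios exceeded the lowest by 8.26% for alpha to beta, by 12.9% with the first alpha rows alone and by 31.1% for the summed globins to Alas2. By the root mean square difference of centred log2 values over the 4 libraries, the names nearest to the summed globins, apart from the globins themselves, were Gm9104 (0.047), Cisd3 (0.071), 2010015L04Rik (0.113), Rpl21 (0.118) and Gm13157 (0.122). Alas2 ranked 11th with 0.161. Cisd3, which encodes a mitochondrial iron-sulfur protein, had 4.17 RPKM (vehicle) and 8.03 (SD) in WT, and 5.79 (vehicle) and 5.94 (SD) in G93A. The names nearest to Alas2 were Prdm9 (0.086), 2810429I04Rik (0.092), Cox4i2 (0.109), Zfp868 (0.112) and Samd12 (0.119). With 4 points, likeness of this kind is a description of these libraries.

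None of the other enzymes and transporters of heme synthesis on the list reached 1.5-fold between the WT libraries. All 14 listed genes had a mean of at least 1 RPKM, and 0 of 14 differed at least 1.5-fold between WT + SD and WT vehicle in either direction. This is near the background of 0.909% higher and 1.36% lower among names of that level. Their median log2 fold change was 0.00090, against 0.0044 over all names. Alas1 had 12.5 RPKM (vehicle) and 12.8 (SD) in WT, and 13.5 (vehicle) and 13.5 (SD) in G93A, a level above Alas2 per length of transcript in every library. Fech, the ferrochelatase that inserts iron into protoporphyrin to make heme, had 23.0, 21.2, 21.0 and 22.0 RPKM in the same order. Alad, the second enzyme, had 15.1 and 13.7 RPKM in the WT libraries and 21.3 and 20.1 RPKM in G93A vehicle and G93A + SD. Cpox went the other way, from 29.4 and 28.4 RPKM in WT to 21.4 and 18.5 RPKM in G93A. It was the 1 gene of the list past 1.5-fold, in G93A + SD against WT + SD. In that comparison 8.12% of names averaging 1 RPKM or more were lower, so that 1 of 14 is near the background.

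Among genes that clear heme and hemoglobin, Hmox1 differed between the genotypes and not between the WT libraries. Hmox1, the inducible heme oxygenase, had 3.08 RPKM (vehicle) and 3.15 (SD) in WT, and 32.5 (vehicle) and 36.9 (SD) in G93A. Between genotypes it was 10.5-fold higher under vehicle and 11.7-fold higher under SD, while the WT libraries were nearly equal. Hmox2, the constitutive form, had 59.98, 60.2, 54.5 and 50.4 RPKM in the same order of libraries. The hemoglobin scavenger receptor Cd163 had 0.227, 0.238, 0.246 and 0.355 RPKM, and haptoglobin (Hp) and hemopexin (Hpx) stayed at or below 0.223 RPKM in every library. Of the 10 genes of this list, 1 was at least 1.5-fold higher in WT + SD than in WT vehicle (Hp, from 0.040 to 0.093 RPKM). This is beside 7.40% of all names and 23.9% of those averaging below 1 RPKM, as Hp does. Between genotypes 3 of 10 were higher under vehicle and 3 of 10 under SD, beside 20.7% and 23.8% of all names. For names averaging 1 RPKM or more, as 7 of the 10 did, the shares were 13.5% and 16.3%. The median log2 fold change of the list was 0.22 under vehicle and 0.43 under SD, against 0.046 and 0.050 over all names. The counts were thus near the background of all names, while the medians lay above it. Hp and Hpx, both under 0.1 RPKM in the vehicle libraries, were 2 of the 3 under vehicle.

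**Figure D4:**
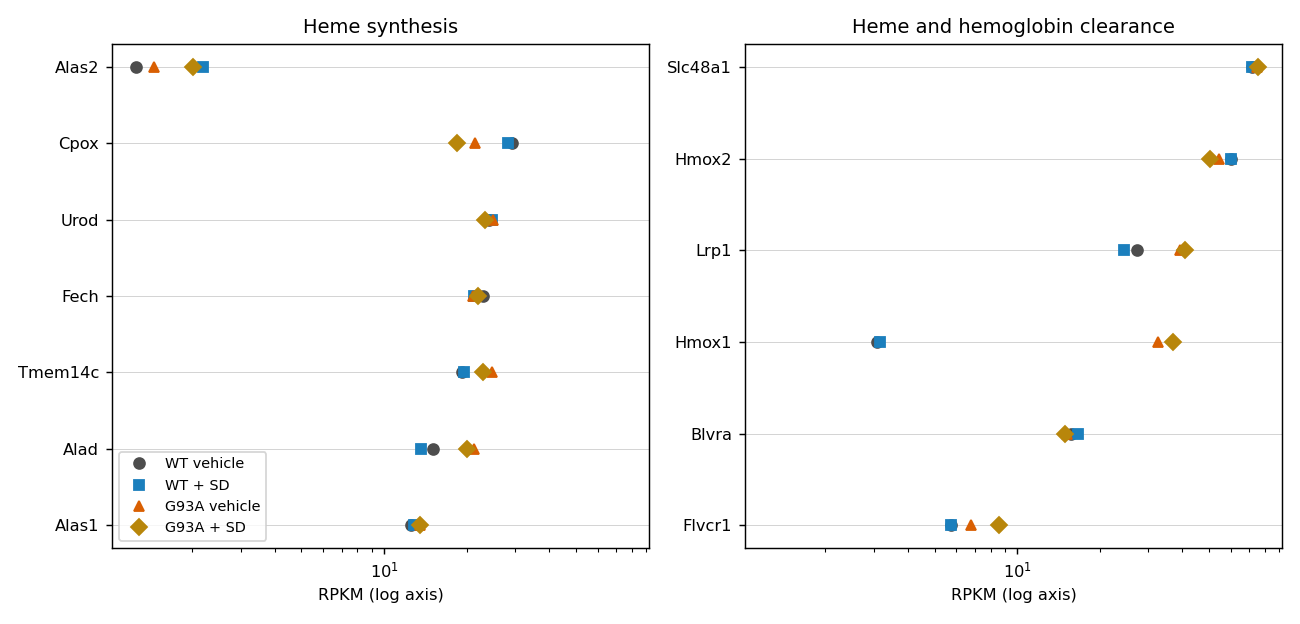
RPKM on a log axis of Alas2 and the 6 heme synthesis genes with the highest means (left) and of the 6 such genes that clear heme and hemoglobin (right), with 1 point per library. Alas2 spans 1.25 to 2.19 RPKM while Alas1 spans 12.5 to 13.5 RPKM, and Hmox1 is near 3 RPKM in both WT libraries and above 30 RPKM in both G93A libraries.

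Other red cell genes were near the lower end of the table. Of 20 listed erythroid genes 17 were found, and 12 of these had a mean below 1 RPKM. Slc4a1, which encodes the anion exchanger band 3 of the red cell membrane, had 0.054 RPKM (vehicle) and 0.029 (SD) in WT, and 0.035 (vehicle) and 0.048 (SD) in G93A. Klf1, the erythroid transcription factor, had 0.035, 0.093, 0.056 and 0.147 RPKM in the same order of libraries. Klf1 was 2.63-fold higher in WT + SD than in WT vehicle, and its counting error was not estimated. The 5 genes averaging 1 RPKM or more include Bnip3l, Tmcc2, Bpgm and Tfrc, which neural cells also express, and 0 of the 5 reached 1.5-fold between the WT libraries. Among names of that level 0.909% were higher and 1.36% lower, so that 0 of 5 is near the background. Of the 12 below 1 RPKM, 5 were higher and 4 lower in WT + SD, beside 23.9% and 27.7% of all names below 1 RPKM. Of the minor globins, Hbq1 had 0.344, 0.421, 0.615 and 0.196 RPKM. F830116E18Rik, now called Hbq1b, had 0.296, 0.660, 0.117 and 0.138 RPKM, with WT + SD highest as for the members and 2.23-fold above WT vehicle. The embryonic Hbb-y was listed at 0 in all libraries but G93A + SD, with 0.042 RPKM. Of the globins of other cells, none reached 1.5-fold in WT + SD, beside 7.40% higher and 8.82% lower of all names. Neuroglobin (Ngb) had 3.85 RPKM in both WT libraries, 2.99 in G93A vehicle and 3.57 in G93A + SD, cytoglobin (Cygb) had 24.4, 24.4, 18.4 and 17.7 RPKM, and myoglobin (Mb) had 0.329, 0.346, 0.352 and 0.374 RPKM.

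Endothelial genes mark the vessels that hold the blood, and their summed level was not higher in WT + SD. Of 18 genes, all with a mean of at least 1 RPKM, 0 differed at least 1.5-fold between WT + SD and WT vehicle, with a median log2 fold change of -0.025. Among names of that level 0.909% were higher and 1.36% lower, so that 0 of 18 is near the background. Their summed level was 208 RPKM (vehicle) and 205 (SD) in WT, and 202 (vehicle) and 180.1 (SD) in G93A. The glucose transporter Slc2a1 had 42.3, 39.6, 49.1 and 46.1 RPKM in that order, and Pecam1 had 5.04, 4.96, 4.65 and 4.35 RPKM. In G93A + SD against WT + SD, where the globins were lower, 4 of the 18 were at least 1.5-fold lower, namely Kdr, Cldn5, Egfl7 and Emcn, beside 8.12% of names averaging 1 RPKM or more. The median log2 fold change of the list was -0.26 there, beside -0.29 for Hba-a1 and -0.37 for Hbb-b1. Under vehicle the genotype comparison gave the list a median of -0.11, while Hba-a1 was at 0.59 and Hbb-b1 at 0.61. There 1 of the 18 was higher and 0 lower, beside 13.5% and 4.68% of names averaging 1 RPKM or more. Over all names the medians were 0.046 under vehicle and 0.050 under SD. The tight junction gene Cldn5 had 12.4, 10.3, 12.3 and 6.55 RPKM. Pericyte and smooth muscle genes summed to 37.1, 35.1, 53.5 and 56.5 RPKM. Rgs5 made up most of the WT sums, with 22.7 and 19.5 RPKM there and 22.4 and 20.5 RPKM in G93A, so that the order of the WT sums rests on it.

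By their summed levels, the platelet, neutrophil and monocyte and lymphocyte lists did not share the library order of the globins. Platelet Ppbp had 0.201 RPKM (vehicle) and 0.218 (SD) in WT, and 0.230 (vehicle) and 0.216 (SD) in G93A, and Pf4 had 0.231, 0.156, 0.605 and 0.910 RPKM. Gp1bb had 16.5, 14.9, 15.1 and 13.4 RPKM and Nrgn, which neurons express, 7.70, 5.82, 5.04 and 5.20 RPKM. These genes made up most of the platelet sum and set its order, since the other 10 of 12 had a mean below 1 RPKM. In WT 3 of the 12 were higher and 1 lower with SD, all averaging below 1 RPKM, where 23.9% and 27.7% of names were. Of the neutrophil genes with the highest means, Csf3r, which microglia also express, had 1.48, 1.54, 11.5 and 13.1 RPKM, Lcn2 had 2.10, 0.728, 5.27 and 4.67 RPKM and Mmp9 had 2.61, 2.26, 1.30 and 0.667 RPKM. S100a8 had 0.583, 0.525, 0.938 and 0.364 RPKM, and S100a9 had 0.328, 0.262, 1.27 and 0.342 RPKM. None of these 5 was highest in WT + SD. Of 14 neutrophil genes 11 had a mean below 1 RPKM. With SD in WT 2 were higher and 5 lower, beside 23.9% and 27.7% of names averaging below 1 RPKM. In G93A over WT 11 were higher and 1 lower under vehicle, beside 38.7% and 24.9% of such names, and 7 higher and 3 lower under SD, beside 42.2% and 24.4%. These counts include Csf3r, Lcn2 and Mmp9, which average 1 RPKM or more. Csf3r and Lcn2 were higher and Mmp9 lower in both genotype comparisons. At their level the shares were 13.5% higher and 4.68% lower under vehicle, and 16.3% and 8.12% under SD. Lcn2 was also 1 of the 5 lower with SD in WT, where 1.36% of names at its level were. The 12 monocyte and lymphocyte genes found all had a mean below 1 RPKM. Their sum was 0.149 RPKM (vehicle) and 0.789 (SD) in WT, and 1.40 (vehicle) and 1.69 (SD) in G93A, with WT vehicle lowest as for the globins but WT + SD below both G93A libraries. Of these genes, 10 of 12 were higher in WT + SD than in WT vehicle, beside 23.9% of names averaging below 1 RPKM, and 11 of 12 in G93A vehicle than in WT vehicle, beside 38.7%. In G93A + SD against WT + SD 6 of 12 were higher and 2 lower, nearer to the 42.2% and 24.4% of such names. Of the 10, 5 were listed at 0 in WT vehicle (Plac8, Cd3d, Cd3e, Ms4a1 and Nkg7) and count as higher at any level. The other 5 were Ly6c2, Ccr2, Cd3g, Cd79a and Cd79b, at 2.40-fold to 8.62-fold and at or below 0.122 RPKM in the WT libraries. This list and the globins were thus both higher in WT + SD than in WT vehicle, but the values of the list lay near 0. The counting error of its genes was not estimated. The share for names averaging below 1 RPKM is not matched to values this low.

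Microglial and macrophage genes separated the genotypes instead. They summed to 214 RPKM (vehicle) and 192 (SD) in WT, and 1353 (vehicle) and 1432 (SD) in G93A, and 0 of 13 differed at least 1.5-fold between the WT libraries, near the 0.909% higher and 1.36% lower of names averaging 1 RPKM or more. Between genotypes 12 of 13 were higher under vehicle and 12 of 13 under SD, beside 13.5% and 16.3% of those names, with median log2 fold changes of 2.28 and 2.67. The globins stood between the WT libraries in both G93A libraries, while these genes stood above them. The part that any of these cell types had in the globin values was not tested.

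**Figure D5:**
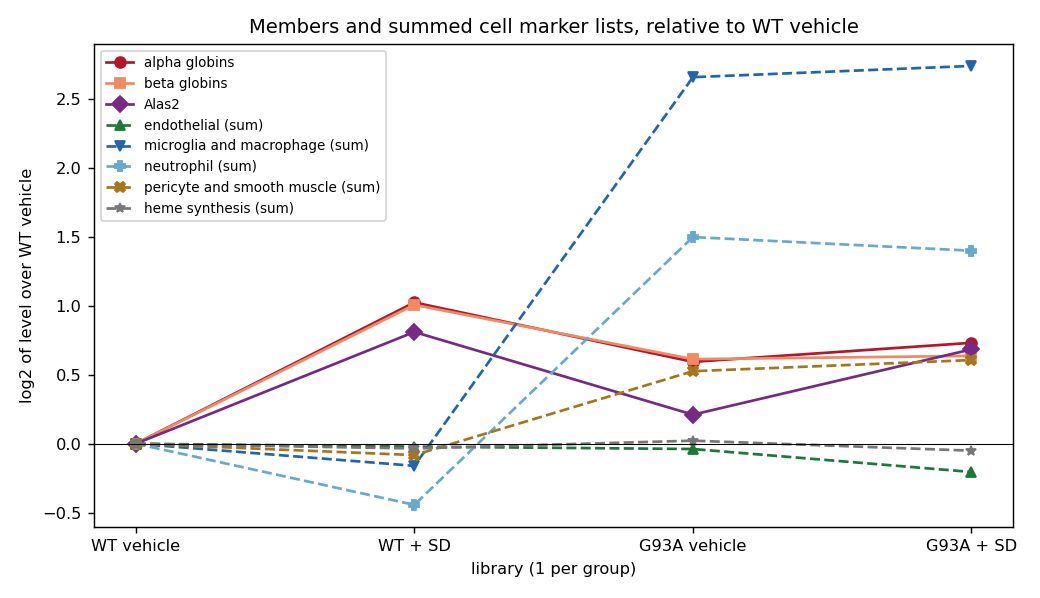
Log2 of the level in each library over WT vehicle for alpha globin, beta globin and Alas2 (solid lines, means over rows) and for the summed RPKM of marker lists (dashed lines). Lines join the 4 libraries only to guide the eye. The members peak in WT + SD, where the summed endothelial genes are at 205 RPKM against 208 RPKM in WT vehicle, and the microglial genes rise in both G93A libraries.

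The libraries matched their tissue. Mbp had between 3575 and 4669 RPKM, Chat between 4.33 and 9.83 RPKM and Hoxc10, a gene of the lumbar segments, between 12.5 and 20.2 RPKM. The forebrain genes Emx1 and Tbr1 were at or below 0.068 RPKM in all libraries, while Neurod6 had between 1.19 and 1.64 RPKM. The sum of RPKM was 376852 to 377288 in the WT libraries and 392599 to 393328 in the G93A libraries. The globin rows made up 0.014% to 0.029% of it.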

How the data were processed

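RNA of the lumbar cord was analysed in 4 libraries, 1 per group, grouped by their sample titles. The authors deposited 1 table. Its values were taken as RPKM, which is inferred because the deposited header names no unit. The study's methods give polyA RNA, 53 base reads, alignment with STAR to GRCm38 and HTSeq counting on an Ensembl gene set, whereas the table lists RefSeq transcripts. The authors' 3 ratio columns, which hold their own comparisons, were not used.

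A gene name was called different at 1.5-fold on the mean of its rows, with no pseudocount and no filter, among names above 0 in either library. A name at 0 in 1 library was called. Log2 values have a pseudocount of 0.1 RPKM. Named genes were the members, at most 6 genes of each list by highest mean (all detected ones for globins, heme synthesis and erythroid genes), and the 5 names nearest to the summed globins and to Alas2. Other list genes were named after their values were seen, namely Hp, Hpx, Cd163, Ppbp, Pecam1, Kdr, Egfl7, Emcn, Cd3d, Cd3e, Ms4a1, Ly6c2, Cd79a, Myh11, Chat and Hoxc10. Genes listed under an older name were matched through RefSeq transcripts. The members and lists were chosen with earlier results of these data known. Lengths, windows and positions came from GENCODE M21 and RefSeq (GRCm38.p6). Fragments were estimated, single or paired reads not being stated, from the step of low values on transcripts over 500 bases, and intervals on folds use the square root of these estimates. They cover counting error only.

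The alternatives were median-ratio scaling, a pseudocount of 1 RPKM, a mean of at least 1 RPKM, a 2-fold threshold, the row with the highest mean, and a total without globin rows. The row with the lowest mean was added after seeing the data. The scripts ran in Python 3.11.15 with pandas 2.3.3, numpy 2.4.6 and, for plots, matplotlib 3.10.9, and were tested on simulated data. Protein sequences were not used here, and some list genes are counted but not reported here by name.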

Additional observations from a re-analysis of the deposited data

Results flagged for a closer look

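The genotype difference of every member had opposite signs with and without SD, which was not tested because each group has 1 library. The fold of G93A over WT under SD, divided by that under vehicle, was 0.541 for Hba-a1 and Hba-a2, 0.506 for Hbb-b1 and Hbb-b2, and 0.792 for Alas2. For the first row of Alas2 the counting intervals of both folds included no difference (0.868 to 1.53 under vehicle and 0.736 to 1.15 under SD). Its change of sign is therefore within counting error. The 4 libraries stand behind each of these values, and the WT libraries differed more (2.03-fold for Hba-a1) than the G93A libraries (1.10-fold). For the heme synthesis list the median log2 fold change was 0.020 under vehicle and -0.017 under SD, a difference of -0.037, and for the erythroid list 0.016 and -0.102, a difference of -0.119. These last differences were not tested either.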

How the results depend on the processing

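WT + SD remained above WT vehicle for all 5 names under all alternatives, at 1.5-fold or more except for Alas2 with a pseudocount of 1 RPKM (1.42-fold). Alas2, at 1.75-fold, did not reach the 2-fold threshold. In G93A vehicle against WT vehicle, the summed globins at 1.52-fold did not reach the 2-fold threshold. They were also below 1.5-fold with median-ratio scaling (1.45), the row with the highest mean (1.48) and the total without globin rows (1.46), which sets the libraries to 1 sum of RPKM where the G93A sums were higher. The single globin names were also below it with a pseudocount of 1 RPKM (1.46 for Hba-a1 and Hbb-b1). In G93A + SD against G93A vehicle, the row with the lowest mean turned the direction, to 0.912 for Hba-a1, 0.912 for Hba-a2 and 0.976 for the summed globins. That alternative takes the second pair of alpha rows. Of 168 folds of members and their sum, 141 kept direction and side of the threshold, 24 fell below it and 3 turned. Part of the 141 was fixed in advance. The filter at a mean of 1 RPKM could not change these folds, because all members pass it. The 2-fold threshold could change only which folds were called. The choice of row could not change Hbb-b1 or Hbb-b2, which have 1 row each. Counts over all names depended on low values. Higher and lower names of G93A over WT numbered 3782 and 1915 under vehicle and 4341 and 2340 under SD, and those of SD over vehicle 1341 and 1597 in WT and 1626 and 1366 in G93A. With a pseudocount of 1 RPKM these were 1552 and 355, 1950 and 782, 50 and 83, and 112 and 85 in that order. Among names averaging 1 RPKM or more they were 1751 and 608, 2113 and 1054, 118 and 176, and 174 and 135. The 2-fold threshold moved the counts of G93A over WT to 2499 higher and 1022 lower under vehicle and 1129 lower under SD, and that of SD over vehicle in G93A to 1017 higher. No paired analysis was possible because each group has 1 library. Depth limits the precision of list genes below 1 RPKM, for which the counting error was not estimated.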

Other observations

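Some genes of vessel walls and of the meninges also varied between the libraries. Tagln, a smooth muscle and fibroblast gene, had 2.48 RPKM (vehicle) and 4.01 (SD) in WT, and 14.0 (vehicle) and 19.4 (SD) in G93A. Other genes of the pericyte and smooth muscle list differed less or went the other way, as Rgs5 (0.988-fold and 1.05-fold in G93A over WT under vehicle and SD) and Myh11 (0.729 and 0.695). Of the 10, 3 were higher and 0 lower under vehicle and 6 higher and 1 lower under SD, beside 20.7% and 10.5% and then 23.8% and 12.8% of all names. Ptgds, which meningeal cells and oligodendrocytes express, had 194, 253, 298 and 227 RPKM in the same order, so that WT vehicle was lowest and G93A vehicle highest. Dcn, a fibroblast gene, had 5.52, 6.98, 5.42 and 9.85 RPKM. In the meningeal list 0 of 10 genes differed at least 1.5-fold between the WT libraries, beside 7.40% higher and 8.82% lower of all names. In G93A over WT 4 of the 10 were higher and 0 lower, both under vehicle and under SD, beside the genotype shares given above. Between the G93A libraries 2 were higher and 0 lower with SD, beside 8.89% and 7.46% of all names.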
